A study of Mus musculus with 51 samples.

Results

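Odorant receptor (OR) transcripts retrieved from recently active olfactory sensory neurons (OSNs) were compared between 3 mice exposed to 100 μM MTMT and the 3 control mice of the same experiment. These 6 libraries, of 51 in the series, were chosen by the labels for the odorant and for control or experimental status, and each table holds 1117 OR genes. Each library was made by pS6-IP-Seq from the whole olfactory mucosa of 1 C57BL/6J mouse about 3 weeks old, of either sex, after a habituation hour and 1 hr beside 10 μL of stimulus or diluent on a blotting pad. The same 3 control mice also served (E)-β-farnesene and 2,5-DMP (2,5-dimethylpyrazine), each given to 3 other mice, so that all 3 comparisons share them. The study describes exposed and control mice as litter matched, but the labels do not name litters. MTMT was diluted in ethanol. 2,5-DMP was diluted in water, and farnesene, given at full strength, was not in ethanol either. The labels do not name the diluent of the shared controls, so odor and diluent cannot be told apart in that comparison.

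MTMT, (methylthio)methanethiol, is a sulfur compound of male mouse urine that attracts females. Each mature OSN expresses 1 OR gene, and the OR decides which odorants excite the cell. Firing leads to phosphorylation of ribosomal protein S6, and an antibody against phosphorylated S6 (pS6) pulls down ribosomes with their mRNA, so that OR transcripts of active OSNs take a larger share of the reads. In these bulk libraries more active cells of a type and more captured RNA per cell cannot be told apart.

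OR reads per library ranged from 104814 to 111854 after MTMT and from 62538 to 124921 in the controls, where replicate 1 was the shallowest. The tables hold OR genes only, so whole-library depth and markers of the mucosa's other cell types could not be examined. Replicates differed by more than counting noise in each of the 6 pairs within groups (chi-squared over its degrees of freedom 5.53 to 9.87), so none looked like a repeat deposit. A library used below only for the higher dose, labeled 10 mM MTMT replicate 1, stood apart from its 2 fellow replicates, and results that rest on it are given with and without it.

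After MTMT 7 ORs stood out: *Olfr1295*, *Olfr165*, *Olfr56*, *Olfr1395*, *Olfr224*, *Olfr1209* and *Olfr315*. They had the lowest p on the higher side against the controls, and the cut at 7 was not a rule set beforehand. Against the controls 3 of them passed an adjusted p of 0.05 in the main fit, which does not pair mice by replicate number. With a replicate block 6 did. All 7 passed against the farnesene and 2,5-DMP mice. The 7 genes lie in 5 places. In the mouse genome (build GRCm38) the single coding exon of *Olfr1295* is at chr2:111564507-111565442 on the minus strand, and that of *Olfr1209* at chr2:88909462-88910391, also minus. *Olfr165* is coded at chr16:19407079-19408017 on the minus strand. *Olfr56* (chr11:49134194-49135138) and *Olfr1395* (chr11:49148259-49149209) are plus-strand neighbors 13.1 kb apart. *Olfr224* (chr11:58566402-58567343, minus) and *Olfr315* (chr11:58778129-58779055, plus) lie in another OR cluster of the same chromosome.

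The 30 coding bases around the aspartate-arginine-tyrosine triplet at the inner end of the third transmembrane segment, the best-known signature of mammalian ORs, are shown for 5 of the 7 genes because they let them be compared at a site they share. They were read from the GRCm38 genome, 5′ to 3′ on the coding strand, and capitals mark bases that differ from *Olfr1295*.
*Olfr1295*: atggcttatgaccgctatgtagccatctgc
*Olfr165*: atggcCtatgaccgTtatgtagcTatTtgT
*Olfr56*: atggcttatgaTcgctatgtGgccatTAgc
*Olfr1209*: atggctGTGgaccgAtatgtGgccatctgT
*Olfr315*: atgTcCtatgaTcgctaCgtagccatAtgc
The stretch differed from *Olfr1295* at 4 to 6 bases, and at most 1 of 10 codons changed the residue. The triplet itself was found by the same search in 868 of 1099 ORs with a whole reading frame, and it is a feature of the family rather than of MTMT.

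Over the whole protein, 5 of the 7 receptors were closer to each other (51.1% to 62.9% identical residues) than to *Olfr1295* and *Olfr1209* (36.8% to 44.2%). *Olfr56* and *Olfr1395* were 62.9% identical, *Olfr315* was 60.2%, *Olfr224* 58.3% and *Olfr165* 57.2% identical to *Olfr1395*. *Olfr1295* and *Olfr1209* were nearest to each other among the 7, at 45.5%, where the median identity to all other ORs was 39.7% and 41.0%. *Olfr165* lies on another chromosome from its relatives on chromosome 11. Counting of their reads can overlap with near copies: 13.9% of the 50-base stretches of *Olfr224* transcripts occur in another OR, mainly *Olfr329*, *Olfr328* and *Olfr330*, against 0% for *Olfr1295*, *Olfr1395* and *Olfr315*, 0.26% for *Olfr56*, 1.07% for *Olfr165* and 1.75% for *Olfr1209*. *Olfr56* also shares 111 exon bases, none of them coding, with the interferon-inducible gene *Ifi47*.

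After 100 μM MTMT, *Olfr1295* rose in all 3 mice. Its share of OR reads was 0.202%, 0.358% and 0.228% in the 3 MTMT mice (212, 400 and 249 reads). In the 3 controls it was 0.0832%, 0.0761% and 0.0826% (52, 95 and 102 reads). The lowest exposed mouse was thus well above the highest control, and the mean share was 0.263% ± 0.083 against 0.0806% ± 0.0040 (SD, n = 3 each). edgeR's quasi-likelihood test gave a log2 fold change of 1.69 ± 0.26 (SE; 3.22-fold) and an adjusted p of 0.00204. It was the lowest p of the 1068 ORs tested, those that reached a sum of 10 reads across the 6 libraries.

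*Olfr165*, a receptor of the chromosome 16 cluster, was at 0.0887%, 0.129% and 0.0951% of OR reads after MTMT and at 0.0336%, 0.0376% and 0.0324% in the controls. The groups did not overlap, and the log2 fold change was 1.57 ± 0.28 (SE) with an edgeR adjusted p of 0.00711. *Olfr56* reached 0.377%, 0.385% and 0.357% after MTMT against 0.130%, 0.203% and 0.143%. Its log2 fold change was 1.21 ± 0.23 (SE; edgeR adjusted p = 0.0172), again with no overlap. These 3 ORs were the only ones past the threshold by this test, 0.281% of 1068, and no OR was lower past it (0%; 0 by DESeq2; the lowest adjusted p on the lower side was 0.880). At an unadjusted p below 0.05 there were 24 ORs on the higher side and 20 on the lower.

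**Figure D1:**
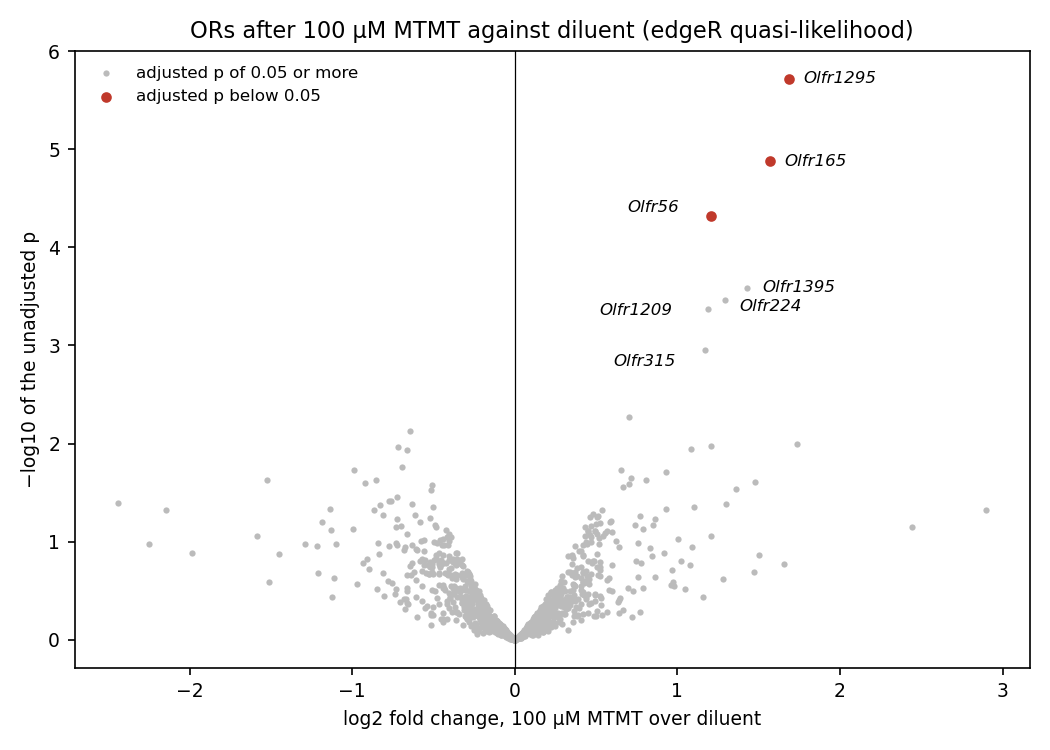
Each point is 1 of 1068 ORs, with the log2 fold change of 100 μM MTMT over diluent on the x axis and −log10 of the unadjusted edgeR p on the y axis (n = 3 mice per group). Red points (*Olfr1295*, *Olfr165*, *Olfr56*) had an adjusted p below 0.05, and the 4 other labeled ORs stand next to them on the same side.

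The next 4 ORs by p were all on the higher side and did not pass the threshold against these controls by this test, although with DESeq2 *Olfr1395* and *Olfr224* did (adjusted p = 0.000998 and 0.00379). *Olfr1395*, the neighbor of *Olfr56*, was at 0.869%, 1.35% and 0.499% after MTMT against 0.251%, 0.387% and 0.356%. The exposed mice were all above the controls but had a wide spread among themselves (log2 fold change 1.43 ± 0.32 SE, 2.70-fold, edgeR adjusted p = 0.0693). *Olfr224* was at 0.391%, 0.799% and 0.528% against 0.147%, 0.288% and 0.259% (1.29 ± 0.30, edgeR adjusted p = 0.0738). The shares of *Olfr1209* were 0.0973%, 0.0867% and 0.0741% after MTMT and 0.0304%, 0.0480% and 0.0316% in the controls (1.19 ± 0.28, edgeR adjusted p = 0.0751). Neither of these receptors overlapped between the groups. *Olfr315* did overlap: MTMT replicate 1, at 0.203%, was below control replicate 2, at 0.215%, while the other exposed mice were at 0.494% and 0.324% and the other controls at 0.107% and 0.127% (1.17 ± 0.31, edgeR adjusted p = 0.168).

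**Figure D2:**
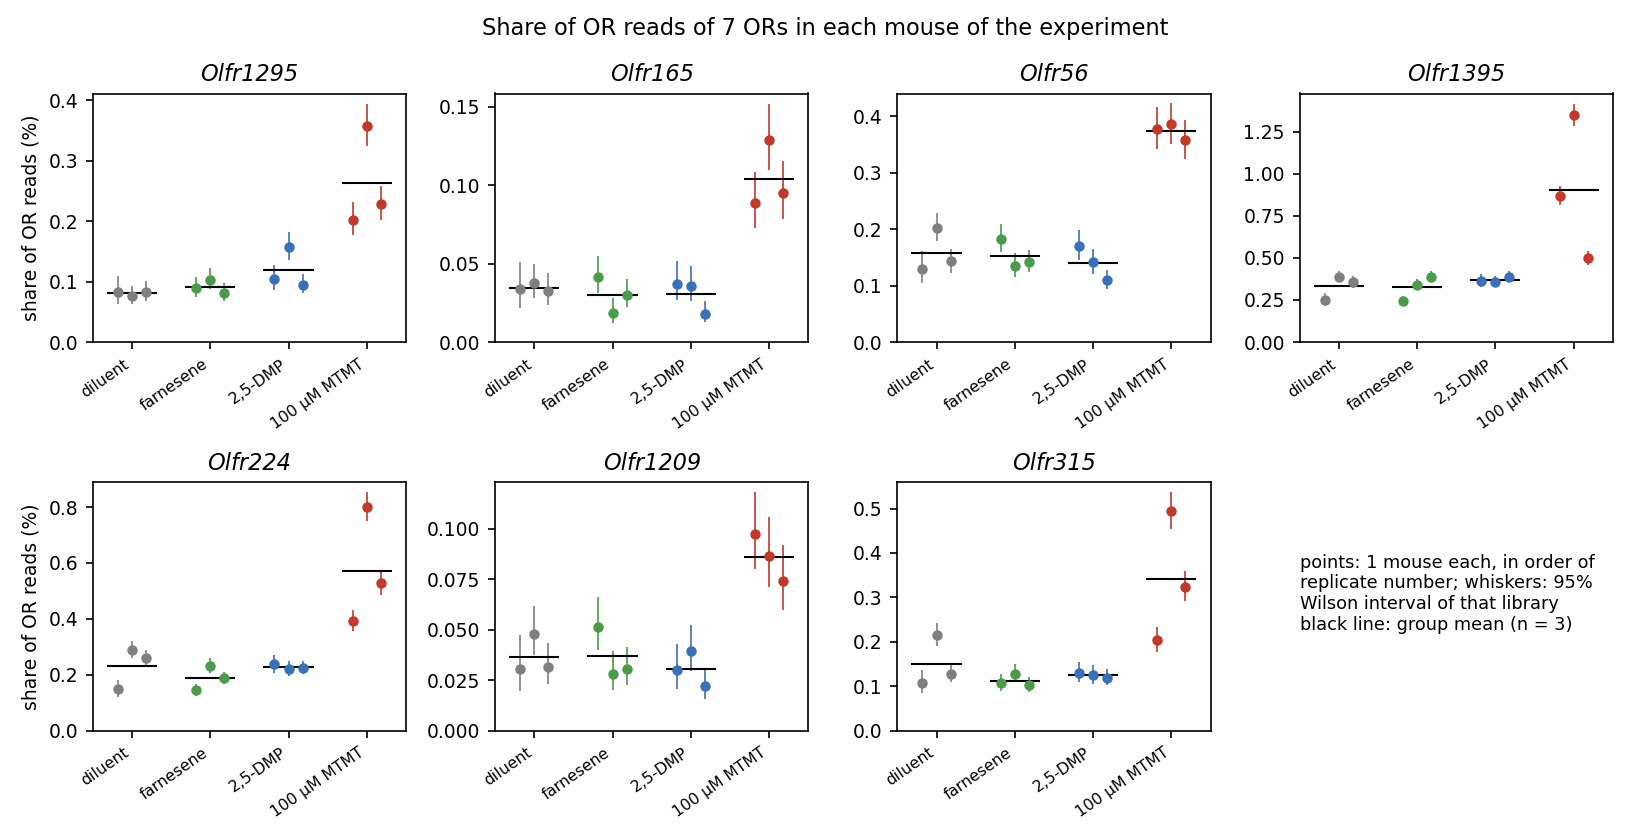
Share of OR reads (%, linear axes from 0) of 7 ORs in the 12 mice of the experiment, by group; points are mice, whiskers the 95% Wilson interval of that library's share, which covers counting error only, and black lines the mean of 3 mice. The MTMT mice lie above every other mouse in 6 panels, and in the *Olfr315* panel 1 MTMT mouse lies just under 1 diluent mouse.

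Shares of the 7 ORs differed among the 3 exposed mice, and the controls also differed among themselves. Over all ORs, chi-squared over its degrees of freedom was 5.53 to 8.5 between exposed mice and 5.68 to 9.87 between controls. MTMT replicate 2 had the highest share of 6 of the 7 ORs, and MTMT replicate 1 had the highest share of the remaining one, *Olfr1209*. In MTMT replicate 2 *Olfr1295* was at 4.44 times its control mean and *Olfr315* at 3.30 times, whereas *Olfr315* was at 1.36 times and *Olfr224* at 1.69 times in replicate 1. *Olfr1395* was at 2.62, 4.07 and 1.51 times its control mean in replicates 1, 2 and 3. For *Olfr56* the range over the mice was 2.25 to 2.44 times. Together the 7 ORs took 2.23%, 3.60% and 2.10% of OR reads in the exposed mice and 0.782%, 1.25% and 1.03% in the controls, a description only, since the ORs were picked by their values.

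Leaving out 1 mouse at a time separated the firm results from the others. *Olfr1295* passed the threshold in all 6 such fits, with a log2 fold change from 1.37 to 1.86 and an edgeR adjusted p of at most 0.0370. *Olfr165* passed in 5 of 6 and was lost without MTMT replicate 2 (log2 fold change 1.36, edgeR adjusted p = 0.103). *Olfr56* passed in 3 of 6, and was lost without MTMT replicate 2 (edgeR adjusted p = 0.103), control replicate 1 (0.106) or control replicate 3 (0.125). Its log2 fold change stayed between 1.11 and 1.41. Without MTMT replicate 2 the log2 fold change of *Olfr1395* was 0.99, that of *Olfr224* 0.95 and that of *Olfr315* 0.77. The count of ORs on the higher side fell to 1 without MTMT replicate 2, to 2 without control replicate 1 or 3, and was 5 without MTMT replicate 1.

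**Figure D3:**
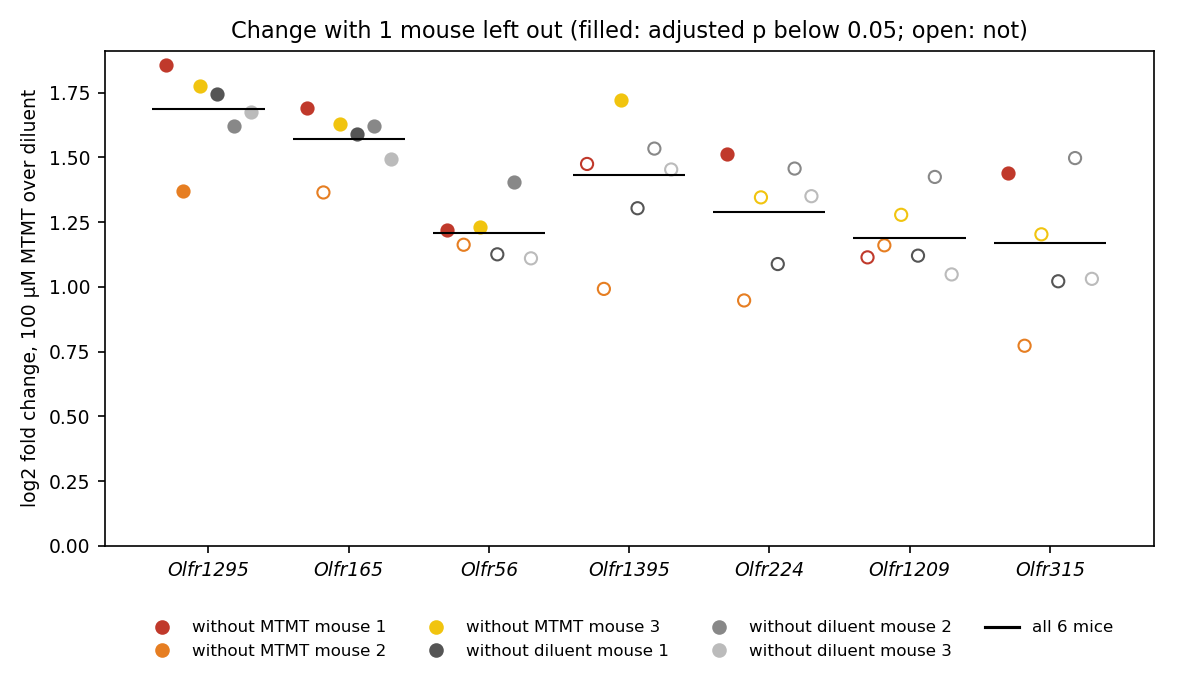
Log2 fold change of 7 ORs, 100 μM MTMT over diluent (y axis), with each of the 6 mice left out in turn; filled points had an edgeR adjusted p below 0.05, open points did not, and the black line is the value with all 6 mice. *Olfr1295* is filled in all 6 fits, and omission of MTMT replicate 2 gives the lowest value for *Olfr1295*, *Olfr165*, *Olfr1395*, *Olfr224* and *Olfr315*.

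The mice exposed to farnesene or 2,5-DMP gave a second reference from the same experiment that does not use the controls, though it uses the same 3 MTMT libraries. Against these 6 mice, 7 of 1078 ORs were higher after MTMT (0.649%), and they were the 7 ORs named above. The cut at 7 was not set beforehand and the MTMT libraries are the same, so the match of the 2 sets is a description. *Olfr315* had a log2 fold change of 1.51 ± 0.22 (SE) and *Olfr56* one of 1.31 ± 0.20 (edgeR adjusted p = 0.000430 for both). For *Olfr224* it was 1.46 ± 0.22 (edgeR adjusted p = 0.000430), for *Olfr165* 1.77 ± 0.27 (0.000480), for *Olfr1295* 1.32 ± 0.21 (0.000613), for *Olfr1395* 1.36 ± 0.24 (0.00106) and for *Olfr1209* 1.33 ± 0.25 (0.00240). Each of the 7 passed the threshold in all 14 alternative fits of this comparison, the omission of each mouse included, with edgeR or DESeq2 adjusted p of at most 0.0485. By the methods neither farnesene, given at full strength, nor 2,5-DMP was diluted in ethanol. The ethanol of the MTMT stimulus was therefore not matched in these mice.

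A further 14 ORs were lower after MTMT than in these mice (1.3% of 1078). All of them rose in the farnesene mice (10 ORs, with *Olfr11*, *Olfr701* and *Olfr1312* at the lowest p) or in the 2,5-DMP mice (4 ORs: *Olfr693*, *Olfr1012*, *Olfr698* and *Olfr699*) against the shared controls, in a test that uses the same odor libraries. After MTMT itself, *Olfr11* had a log2 fold change of 0.35 ± 0.23 (SE) over the controls and *Olfr693* one of −0.29 ± 0.23 (edgeR adjusted p = 0.955 for both). Of 12 ORs listed as leading for those odorants, none passed the threshold after MTMT over the controls, beside 0.281% of all ORs tested. Their log2 fold changes ran from −0.29 to 0.35 with a median of 0.01, beside −0.01 over all ORs tested.

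Conversely, the 7 ORs did not pass the threshold after farnesene or 2,5-DMP, the only other odorants tested here. The controls are the same mice in all 3 comparisons, so the values are given side by side only. After farnesene the log2 fold changes of the 7 over the controls lay between −0.37 (*Olfr315*) and 0.23 (*Olfr1295*), and after 2,5-DMP between −0.33 (*Olfr1209*) and 0.52 (*Olfr1295*). *Olfr1295* after 2,5-DMP had the value farthest above 0 (0.52 ± 0.25 SE, 95% interval −0.01 to 1.05, edgeR adjusted p = 0.991). The 2,5-DMP mice were at 0.104%, 0.158% and 0.0947% for *Olfr1295*, each above the highest shared control (0.0832%).

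**Figure D4:**
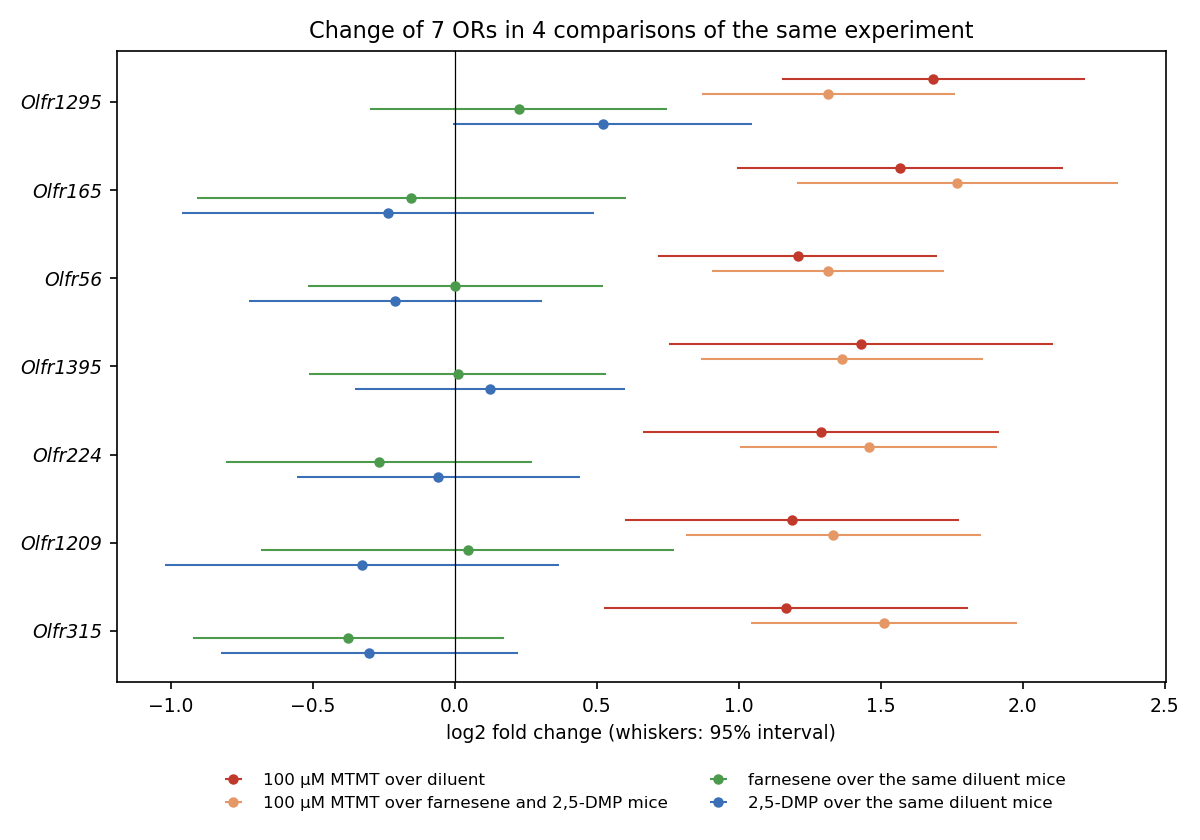
Log2 fold change (x axis) with its 95% interval for 7 ORs in 4 comparisons of the same experiment (3 mice per group). Both MTMT comparisons lie to the right of 0 for every OR, and the farnesene and 2,5-DMP intervals include 0 for every OR.

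Levels in the 21 control mice of the whole series place the MTMT values. No control mouse reached the lowest MTMT mouse for *Olfr1295* (highest control 0.169%), *Olfr165* (0.0659%), *Olfr224* (0.336%) or *Olfr1209* (0.0696%). The median of the 21 was 0.1045% for *Olfr1295*, above the highest control of the 100 μM experiment (0.0832%), so the controls used for its fold change were low in the series. For *Olfr1395* 2 of 21 control mice exceeded the lowest MTMT mouse, for *Olfr56* 3 and for *Olfr315* 5. *Olfr56* in particular reached 0.492% in 1 control mouse of another experiment, above all 3 MTMT mice. These controls come from other experiments and depths, so the values are levels and not tests. Some mice given other odorants also reached MTMT levels, which was not tested. *Olfr1395* was at 0.829%, 0.882% and 0.756% in the mice given undiluted SBT, another odorant of male urine. *Olfr56* was at 0.627%, 0.0890% and 0.497% in the β-caryophyllene mice. *Olfr165* stayed below its lowest MTMT mouse in the undiluted SBT mice (0.0662%, 0.0612% and 0.0643%).

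The rest of the 12 ORs with the lowest p on the higher side did not pass. They were *Olfr720* (0.219%, 0.258% and 0.216% after MTMT against 0.107%, 0.137% and 0.172%; log2 fold change 0.70 ± 0.23 SE, edgeR adjusted p = 0.711), *Olfr1129*, *Olfr1082*, *Olfr1199* and *Olfr959*. *Olfr1129* had the highest fitted value of them (1.73 ± 0.61) on 69 reads over the 6 libraries. On the lower side the ORs with the lowest p were *Olfr464* (0.176%, 0.147% and 0.178% against 0.240%, 0.292% and 0.235%; −0.65 ± 0.22, edgeR adjusted p = 0.880), *Olfr747*, *Olfr557*, *Olfr582*, *Olfr707*, *Olfr286*, *Olfr765* and *Olfr1255*, from −1.52 to −0.65. Every exposed mouse was above every control in 52 of the 1068 ORs (4.87%) and below every control in 40 (3.75%). The 10 ORs with the largest share in the controls included none that passed, beside 0.281% of all ORs tested. Their log2 fold changes ran from −0.77 to 0.32.

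Receptors with a known or proposed link to thiols or to male odor were read next. *Olfr1509* (MOR244-3), which is known to bind MTMT with the help of copper, was at 0.182%, 0.215% and 0.282% after MTMT and at 0.201%, 0.280% and 0.199% in the controls. The groups overlapped fully, and the log2 fold change was −0.03 ± 0.24 (SE; edgeR adjusted p = 0.984, 95% interval −0.53 to 0.47). None of the 6 tested ORs of its cluster on chromosome 14, *Olfr1507* to *Olfr1512*, passed (−0.45 to 0.14, median −0.02), beside 0.281% of all ORs tested. Of the ORs that the study follows, *Olfr1295* was the only one of 5 to pass: the log2 fold change was 0.16 ± 0.28 for *Olfr910*, −0.11 ± 0.31 for *Olfr912*, −0.02 ± 0.33 for *Olfr235* and 0.56 ± 0.30 for *Olfr1437*.

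More genomic neighbors of the 7 ORs were above 0 than below at this dose. Only 3 of 1068 ORs (0.281%) passed the threshold against the controls, all among the 7. A list without those 3 could therefore hold none that passed. Against the farnesene and 2,5-DMP mice the 7 were likewise the only ORs higher. Of 37 other tested ORs within 100 kb of them, a list drawn up after the values had been seen, none passed the threshold, either against the controls or against the farnesene and 2,5-DMP mice. Their log2 fold changes over the controls ran from −1.13 to 0.93 with a median of 0.13, beside −0.01 over all ORs tested. Of the 37, 26 were above 0, beside 48.4% of all ORs tested, a difference that was not tested. Within 500 kb of *Olfr1295* none of 30 tested ORs passed (median 0.12). Among the 14 ORs named *Olfr314* to *Olfr330* none passed (median 0.04). In the 29 ORs named *Olfr1183* to *Olfr1220*, the cluster of *Olfr1209*, none passed either (median 0.18), although every exposed mouse was above every control in 8 of them, *Olfr1209* itself included (27.6%, beside 4.87% of all ORs tested). *Olfr1199*, *Olfr1202* and *Olfr1183* were among the others, with log2 fold changes of 1.08 ± 0.39, 0.93 ± 0.37 and 0.81 ± 0.33 (SE; edgeR adjusted p = 0.880 for the first and 0.955 for the others). That list was drawn from earlier results of these data.

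The nearest relatives in sequence differed in their values. That of *Olfr1395* is *Olfr56* (62.9% identical), which itself passed the threshold. The OR most similar to *Olfr1295* is *Olfr1294*, 84.9% identical, and it had a log2 fold change of 0.28 ± 0.24 (edgeR adjusted p = 0.982). *Olfr1396*, 80.0% identical to *Olfr56* and 20.5 kb from it, was at 0.03, and *Olfr328*, 91.3% identical to *Olfr224* and 14.2 kb from it, was at 0.02. *Olfr164*, 86.6% identical to *Olfr165*, was at 0.53 ± 0.39 (edgeR adjusted p = 0.955), and *Olfr314*, 69.6% identical to *Olfr315*, at −0.16. *Olfr1199* is the nearest relative of *Olfr1209* (92.9%), and its value of 1.08 was close to the 1.19 of *Olfr1209*. The differences between each OR and its relative were not tested.

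The dose comparison set these changes beside those after 10 mM MTMT, which was run in another experiment with its own 3 controls and with library name prefixes that differ between replicates. In the library labeled 10 mM MTMT replicate 1, none of the 7 ORs was above the highest of the 3 controls. *Olfr1295*, *Olfr165*, *Olfr1395* and *Olfr224* were below all 3 controls. *Olfr1395* took 0.266% of OR reads there, against 0.4135% to 0.578% in the controls. *Olfr1295* took 0.0876% there, against 0.424% and 0.491% in replicates 2 and 3 and 0.0911% to 0.169% in their controls. That library also had *Olfr235* at 0.903% and *Olfr1437* at 0.511%. *Olfr235* was at 0.0282% and 0.0286% in 10 mM MTMT replicates 2 and 3, and *Olfr1437* was at 0.0452% to 0.0814% in the 10 mM controls. The library labeled CPD replicate 2 (CPD is cyclopentadecanone, a musk odorant) carries the same name prefix. It had *Olfr1295* at 0.432%, *Olfr224* at 1.26% and *Olfr235* at 0.0432%. CPD replicates 1 and 3 had *Olfr1295* at 0.0858% and 0.101% and *Olfr235* at 1.04% and 0.426%. *Olfr1437* did not follow *Olfr235*: it was at 0.103% in CPD replicate 2, between the 0.721% and 0.0880% of CPD replicates 1 and 3. *Olfr235* was also at 0.497% in a diluent mouse with the same name prefix, CPD control replicate 1. The labels were kept as given. Whether these 2 libraries were exchanged was not tested, and every value at 10 mM depends on it. In 10 mM MTMT replicate 3 *Olfr541* took 9.79% and *Olfr1437* 6.29% of OR reads, against 0.124% and 0.0740% in replicate 2.

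With all libraries, edgeR found a different change at 10 mM than at 100 μM for 0 of 1083 ORs (lowest adjusted p = 0.573, 68 ORs at an unadjusted p below 0.05), and DESeq2 for 0. The intervals were wide: for *Olfr1295* the difference in log2 fold change, 10 mM minus 100 μM, was 0.04 with a 95% interval from −1.38 to 1.47, and for *Olfr224* it was 1.76, from −0.04 to 3.56 (edgeR adjusted p = 0.851). None of the 7 passed the threshold over the 10 mM controls either, with log2 fold changes from 0.34 (*Olfr56*) to 3.07 (*Olfr224*).

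10 mM MTMT replicate 1 was set apart by its levels of these same ORs, so values without it are a description and no test. *Olfr224* was at 0.124% in replicate 1, at 1.55% and 1.54% in replicates 2 and 3, and at 0.147% to 0.223% in their controls. Its log2 fold change without replicate 1 was 3.60, against 1.29 at 100 μM. Without replicate 1 the dose difference was 2.27 for *Olfr224*, 1.56 for *Olfr315*, 1.08 for *Olfr1209*, 1.05 for *Olfr1395*, 0.49 for *Olfr1295* and 0.20 for *Olfr165*.

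*Olfr56* had the lowest value of the 7 at 10 mM. It was at 0.248% and 0.194% in replicates 2 and 3, within the 0.155% to 0.271% of their controls, and at 0.181% in replicate 1. Its log2 fold change over the 10 mM controls was 0.34 ± 0.32 (SE; edgeR adjusted p = 0.969) with all libraries and 0.52 without replicate 1. The dose difference was −0.88 (95% interval −1.72 to −0.04) with all libraries, and it did not pass the threshold after adjustment (0.765). Without replicate 1 it was −0.73.

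The relatives and neighbors of the 7 ORs varied at 10 mM. Of the 37 neighbors, 13 had a log2 fold change above 1 at 10 mM without replicate 1, and 0 had one at 100 μM. At 10 mM without replicate 1, 17 were within 0.5 of 0. The shares of all ORs in these ranges are not given here, so the counts cannot be read as particular to the neighbors. The median over all 1043 ORs at 10 mM without replicate 1 was −0.01. *Olfr330* was at 3.15 at 10 mM with all libraries and at 3.66 without replicate 1, against 0.48 at 100 μM. *Olfr1396* was at 2.76 without replicate 1, against 0.03 at 100 μM. *Olfr328*, *Olfr325* and *Olfr329*, all within 100 kb of *Olfr224*, were at 2.46, 2.89 and 2.90 with all libraries and at 2.95, 3.40 and 3.44 without replicate 1, against 0.02, 0.46 and 0.45 at 100 μM. *Olfr1290* and *Olfr322* were at 0.06 and 0.04 at 10 mM without replicate 1. With all libraries the dose difference passed the threshold for none of these ORs. Reads of *Olfr224*, *Olfr328*, *Olfr329* and *Olfr330* are partly interchangeable, as given above, so these 4 are not fully separate measurements.

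**Figure D5:**
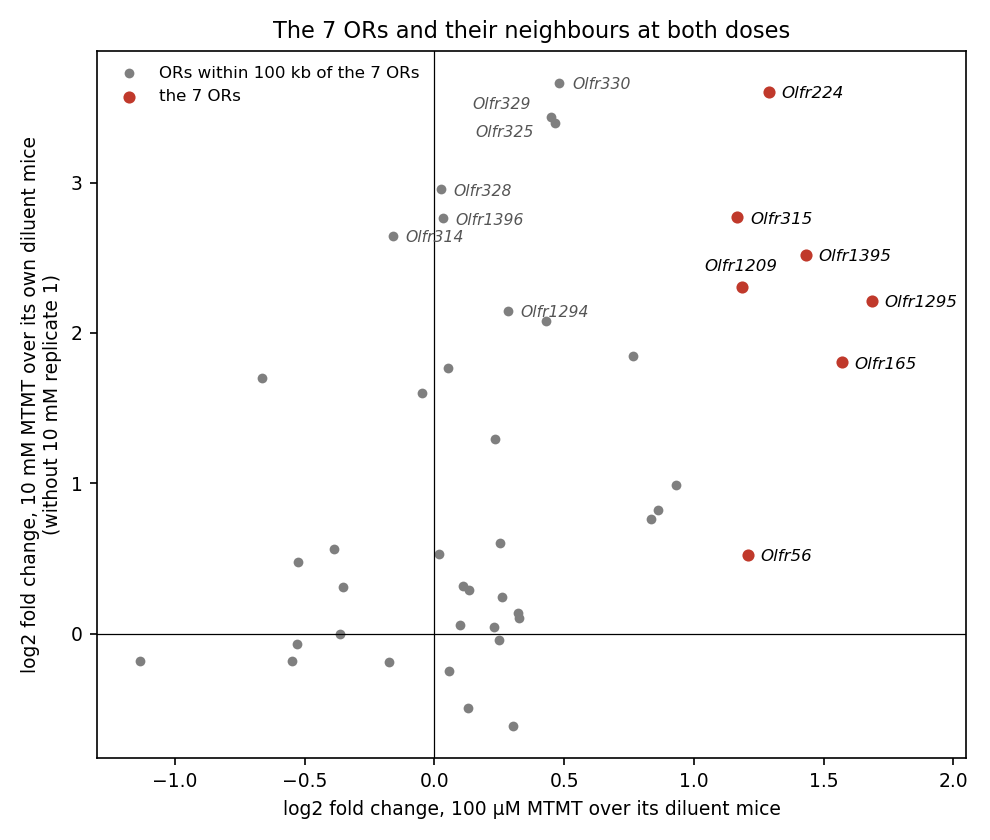
Log2 fold change at 100 μM MTMT (x axis) and at 10 mM MTMT without replicate 1 (y axis), each over its own controls, for the 7 ORs (red) and 37 tested ORs within 100 kb of them (gray). The 7 ORs lie on the right, all but *Olfr56* also above 1.8 at 10 mM, and some neighbors including *Olfr328*, *Olfr1396* and *Olfr330* lies high at 10 mM and near 0 to 0.5 at 100 μM.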

How the data were processed

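According to the methods, the authors mapped single-end reads with STAR to GRCm38.p6 under GENCODE M25 annotation, less 1 OR gene model, and used RSEM. The expected counts they deposited are whole numbers for 1117 intact ORs, not normalized; tool versions are not given in the sources used here. The authors' columns of log2 fold change, CPM, likelihood ratio, p-value and FDR were not used, nor were 6 per-sample columns of another odorant's table that match no sample.

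Counts of ORs with a sum of 10 or more reads were compared with edgeR 4.0.16 (R 4.3.3) using TMM factors over ORs (0.932 to 1.05), glmQLFit and glmQLFTest. P-values were adjusted by Benjamini-Hochberg over the ORs tested, at 0.05. SE is the log2 fold change over the square root of F. A two-sided exact permutation test on log2 shares per 100000 OR reads (pseudocount 5) gave p = 0.1 for 6 of the 7 ORs, the smallest that 3 mice against 3 allow, and p = 0.2 for *Olfr315*. The procedure was tested on simulated data.

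Named ORs are those past the threshold, then those with the lowest p (up to 12 higher and 8 lower), and listed ORs; members and lists were chosen with earlier results of these data known. The neighbor list and the 10 mM MTMT, farnesene and 2,5-DMP values were added after values had been seen. Alternatives were DESeq2 1.42.0, other factors, filters and tests, a fit of 12 libraries, a replicate block, and omission of each library. Positions, 50-base stretches and protein identities came from GENCODE M21 on GRCm38. The coding stretches of 2 ORs are not reported here.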

Additional observations from a re-analysis of the deposited data

Results flagged for a closer look

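In the library labeled CPD replicate 2, which no comparison here uses, 6 of the 7 ORs were above the highest of the 21 control mice: *Olfr1295* at 0.432% of OR reads, *Olfr165* at 0.196%, *Olfr1395* at 1.98%, *Olfr224* at 1.26%, *Olfr1209* at 0.240% and *Olfr315* at 0.467%. *Olfr56*, at 0.191% there, was not. The libraries labeled CPD replicates 1 and 3 had *Olfr1295* at 0.0858% and 0.101%.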

How the results depend on the processing

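The count of 3 ORs higher after 100 μM MTMT was 5 with DESeq2, with library totals, with upper quartile factors and with no filter beyond 1 read, 6 in a fit of the 12 libraries of the experiment, 7 with edgeR's likelihood ratio and exact tests, and 1 to 5 with 1 mouse left out. The added ORs came from the 7 in each case. No OR was lower in any of these fits (0 with DESeq2), except 1, *Olfr707*, without control replicate 3 (range 0 to 1). Under all these settings the 7 ORs kept their direction, with log2 fold changes from 0.77 to 1.86. The scalings moved the median over all ORs by less than 0.1.

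A replicate block gave 6 ORs higher, *Olfr224* (adjusted p = 0.00778), *Olfr315* (0.0137) and *Olfr1395* (0.0318) added, and *Olfr1209* was at 0.0663. The study describes the mice as littermates but does not tie equal numbers to a litter. Deviations of same-numbered mice correlated at 0.14, 0.12 and 0.07, and each library correlated best with its own number. Equal numbers also follow the order of the library names, so litter and library order cannot be told apart. The main fit did not take the numbers as pairs because neither the study nor the labels tie them to litters. Whether they mark pairs was not tested, and the count of 3 or 6 ORs depends on it. Block counts were 0 for the dose difference, and 7 higher and 17 lower against the farnesene and 2,5-DMP mice.

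ORs with a dose difference numbered 1 with the likelihood ratio test and 0 to 29 with 1 library left out. The highest count, 29 of 1081, was without 10 mM MTMT replicate 1. That library was set apart by its levels of the 7 ORs, so the count is a description and no test. *Olfr541* and *Olfr1437* were among the 29, although their shares were high in 10 mM MTMT replicate 3 (9.79% and 6.29%) and not in replicate 2 (0.124% and 0.0740%). Against the farnesene and 2,5-DMP mice, 7 ORs were higher with each library left out and 7 to 18 lower; without MTMT replicate 1 or 3 the lower count was 9 or 7. After 10 mM MTMT 0 ORs were higher over its controls (69 at an unadjusted p below 0.05), and 15 with DESeq2. Without replicate 1 the count was 37 of 1043, again a description and no test. *Olfr1129*, *Olfr765* and other ORs under 100 reads over the 6 libraries are limited by depth.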
